A study of Mus musculus with 2 samples.

Results

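Of the 32285 genes in the count tables, 8 were described together because they encode parts of the phagocyte NADPH oxidase, an enzyme of neutrophil extracellular traps, or antioxidant enzymes. They were chosen by name and not by a cutoff on their values, but with earlier results of these data known. The 8 members are *Cybb* and *Cyba* (the membrane subunits of the oxidase), *Ncf1* and *Ncf4* (cytosolic subunits), *Rac2* (the small GTPase that binds them), *Padi4* (which converts histone arginine to citrulline), *Sod2* (mitochondrial superoxide dismutase) and *Prdx5* (a peroxiredoxin). Each was followed along neutrophil maturation, across the other cells of the lung, and between NP-treated and saline-treated lungs.

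The lungs came from female BALB/cJ mice, 12 weeks old, that carried a 14 day 4T1 tumor, a mouse mammary carcinoma line that spreads to the lung. All mice received 100000 tumor cells. From 1 day later they were given intravenous saline or PLG nanoparticles (NPs, polymer particles carrying no drug) every 3 days, 5 doses in all. The control mice therefore carried the tumor as well, and no lung without a tumor was compared. Each condition was a single 10x library of single cells from pooled lungs, 4 mice per library in the labels, while the study's methods give another number. With 1 library per condition no difference between conditions can be tested, and the mice cannot be told apart within a library. Values in parentheses are 95% intervals, and they cover counting error only.

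Activated neutrophils and macrophages assemble the oxidase at a membrane, where it passes electrons from NADPH to oxygen and makes superoxide. The membrane pair CYBB and CYBA carries the electrons, and the cytosolic subunits move to it on activation together with RAC2. Superoxide and the peroxides formed from it kill microbes and take part in the release of extracellular traps, webs of chromatin loosened by histone citrullination. SOD2 turns superoxide into hydrogen peroxide in mitochondria, and PRDX5 reduces peroxides.

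The saline library held 91168129 unique molecular identifiers (UMIs) and 8662 cells, and the NP library held 90081747 UMIs and 8333 cells, where a cell is a barcode in which 500 to 5000 genes were detected and mitochondrial transcripts made up less than 7.5% of UMIs. The libraries shared 21 cell barcodes. Cells were classed by clusters and marker genes, so a name such as neutrophils here means neutrophil-like by its markers. The neutrophil class held 5612 saline and 3099 NP cells and the monocyte class 778 and 1504. Classes with fewer than 50 cells in either library, among them dendritic cells (18 and 34), were given no level or ratio. Another 3 clusters that mixed neutrophil genes with those of another class stayed unnamed, 2.42% of saline and 2.69% of NP cells. With 1 shallow cluster (132 and 416 cells, median 1356 UMIs), unnamed cells made up 3.95% of saline and 7.68% of NP cells. A level is given in CPM, the UMIs of the gene per 1000000 UMIs of the group, so it is a share of the RNA captured. Less RNA per cell and fewer cells that express the gene were therefore not separated by a level alone.

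On GRCm38 the genes lie at chrX:9435252-9487771 (*Cybb*), chr8:122424776-122432930 (*Cyba*), chr5:134220053-134229625 (*Ncf1*), chr15:78244801-78262580 (*Ncf4*), chr15:78559167-78572783 (*Rac2*), chr4:140745865-140774236 (*Padi4*), chr17:13006846-13040063 (*Sod2*) and chr19:6906697-6910106 (*Prdx5*). *Ncf4* and *Sod2* are on the plus strand and the other members on the minus strand. *Prdx5* overlaps *Trmt112* and *Ncf1* overlaps *Gtf2ird2*, each on the opposite strand. The promoters of *Cybb*, *Ncf1* and *Sod2* are printed because these 3 genes had the largest NP over saline ratios of the 8 in the neutrophils that express interferon-induced genes. They are the 250 bases before the RefSeq start (GRCm38.p6), at chrX:9469325-9469574 on the minus strand, chr5:134229626-134229875 on the minus strand and chr17:13007589-13007838 on the plus strand. The *Cybb* and *Sod2* stretches lie inside the gene spans given above, so the RefSeq start used for them is not the first base of the span. Capitals mark matches, on either strand, to GAAANNGAA (the core of the interferon-stimulated response element) or to TTCNNNGAA (the GAS element bound by STAT dimers).
Cybb: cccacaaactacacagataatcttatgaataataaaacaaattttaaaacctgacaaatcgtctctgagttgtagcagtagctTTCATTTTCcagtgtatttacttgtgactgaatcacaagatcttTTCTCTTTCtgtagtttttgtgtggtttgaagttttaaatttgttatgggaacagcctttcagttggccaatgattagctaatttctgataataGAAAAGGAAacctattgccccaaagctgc
Ncf1: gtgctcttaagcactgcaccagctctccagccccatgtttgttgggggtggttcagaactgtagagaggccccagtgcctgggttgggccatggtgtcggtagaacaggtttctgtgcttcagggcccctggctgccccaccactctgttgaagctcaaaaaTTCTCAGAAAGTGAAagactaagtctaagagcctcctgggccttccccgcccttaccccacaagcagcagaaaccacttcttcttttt
Sod2: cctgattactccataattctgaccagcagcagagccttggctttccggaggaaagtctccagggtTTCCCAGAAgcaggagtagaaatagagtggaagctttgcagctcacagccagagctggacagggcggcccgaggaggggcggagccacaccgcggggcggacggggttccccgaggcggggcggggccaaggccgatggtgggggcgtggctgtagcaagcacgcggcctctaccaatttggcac

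*Cybb* held 3 matches to GAAANNGAA, first bases 167, 123 and 29 before the start, and none to TTCNNNGAA. *Ncf1* held 1 match to each, and they overlap. *Sod2* held 1 match to TTCNNNGAA and none to GAAANNGAA. Promoters were found for 6 of the 8 members, and those of *Cyba*, *Padi4* and *Prdx5* held neither motif. Among 32851 promoters of this length, 7.13% held GAAANNGAA and 7.02% held TTCNNNGAA. Another motif, TGACNNNGC (the antioxidant response element, in 10.2% of promoters), matched none of the 6. A match is a description of the letters and not evidence of binding.

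The first question was how the members vary as neutrophils mature. Neutrophils were sub-clustered without the 8 members or the other pathway genes, and the sub-clusters were ordered by the share of their UMIs on an immature granule list (genes such as *Ltf*, *Camp* and *Ngp*). The most immature sub-cluster with enough cells in both libraries was led by *Ltf* (330 saline and 268 NP cells, 8.59% granule UMIs), and the most mature by *Saa3* (1250 and 132 cells, 0.27%). Between them lay, in order, those led by *Scgb1a1*, *Epas1*, *Prok2*, *Stfa2*, *Cxcl10* and *Mif*. The *Cxcl10*-led sub-cluster expressed interferon-induced genes and held 183 saline and 1145 NP cells, so it was mostly the NP library. The *Scgb1a1*-led (453 and 67 cells), *Stfa2*-led (1125 and 38) and *Saa3*-led ones were mostly the saline library, and the *Epas1*-led one (34 and 34) was led by endothelial genes. Sub-clusters that are mostly 1 library may be that library and not a stage. Those led by *Ube2c* (17 and 17 cells, dividing) and *Hbb-bs* (9 and 18) were too small to stand in the order. Median UMIs per cell were 24494.5 and 22554.5 in the *Ltf*-led and 3853 and 3567 in the *Saa3*-led sub-cluster, in saline and NP cells. Levels along this order are descriptions, since the cells of 1 library are not replicates.

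*Cybb* varied most of the 8 members along this order. It stood at 1132 CPM in saline and 1188 in NP cells of the *Ltf*-led sub-cluster, at 138 and 157 in the *Prok2*-led, at 24.2 and 33.2 in the *Mif*-led, and at 12.99 and 18.5 in the *Saa3*-led sub-cluster. Its level was thus lower at each of these steps in both libraries. In saline cells the immature over mature ratio was 87.2-fold, a log2 ratio of 6.45 (6.10 to 6.81), and in NP cells it was a log2 ratio of 6.003 (5.08 to 7.13), which rests on 9 *Cybb* UMIs in the mature NP cells. The size depends on the processing, since the log2 ratio was 4.70 in saline and 3.69 in NP cells with coarser sub-clusters (resolution 0.3), and 7.73 and 7.15 with free RNA subtracted. After thinning each cell to 1000 UMIs, *Cybb* was seen in 61.8% (56.3 to 67.1) of saline and 67.5% (61.6 to 73.1) of NP cells of the *Ltf*-led sub-cluster, against 0.721% and 1.52% in the *Saa3*-led one. Endothelial cells, which should lack *Cybb*, gave 0.339% and 0.634%, so the share in the most mature neutrophils was near this background.

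The partner subunit *Cyba* changed far less along the same order. Its level was 2082 in saline and 1982 in NP cells of the *Ltf*-led sub-cluster and 1456 and 1217 in the *Saa3*-led one, log2 ratios of 0.52 (0.48 to 0.56) and 0.70 (0.58 to 0.83). The membrane pair therefore parted along maturation at the RNA level, with *Cyba* still present where *Cybb* was near background.

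Of the cytosolic subunits, *Ncf1* was higher in immature cells and *Ncf4* was nearly level. *Ncf1* was at 531 and 522 in the *Ltf*-led sub-cluster and at 148 and 158 in the *Saa3*-led one, log2 ratios of 1.85 (1.74 to 1.96) in saline and 1.72 (1.39 to 2.06) in NP cells. Most of that difference lay before the *Stfa2*-led sub-cluster, where saline cells were already at 120. *Ncf4* was at 1023 and 962 at the immature end and 892 and 844 at the mature end, log2 ratios of 0.20 (0.15 to 0.25) and 0.19 (0.04 to 0.34). *Rac2* peaked in the middle of the order in both libraries. It was at 1523 and 1427 in the *Ltf*-led, 1754 and 1579 in the *Prok2*-led and 1151 and 1013 in the *Saa3*-led sub-cluster, and the ratio of the 2 ends was 0.40 (0.36 to 0.45) in saline and 0.49 (0.36 to 0.63) in NP cells on the log2 scale.

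*Padi4*, the citrullinating enzyme of extracellular traps, was a gene of immature and intermediate neutrophils. Its level was 115 and 111 in the *Ltf*-led, 108 and 103 in the *Prok2*-led, 31.0 and 18.3 in the *Mif*-led and 16.2 and 12.4 in the *Saa3*-led sub-cluster. The immature over mature log2 ratio was 2.82 (2.50 to 3.16) in saline and 3.17 (2.04 to 4.62) in NP cells, where the mature end held 6 UMIs. Unlike *Cybb*, *Padi4* was nearly level between the *Ltf*-led and the *Prok2*-led sub-clusters.

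The antioxidant genes ran in opposite directions. *Sod2* was lowest in the middle of the order, at 20.3 and 23.9 in the *Prok2*-led sub-cluster, and was at 37.6 and 48.0 in the *Ltf*-led and 90.7 and 138 in the *Saa3*-led one. Its immature over mature log2 ratio was -1.27 (-1.48 to -1.06) in saline and -1.52 (-1.91 to -1.12) in NP cells. *Prdx5* was at 2238 and 2379 in the *Ltf*-led and 1215 and 1276 in the *Saa3*-led sub-cluster, log2 ratios of 0.88 (0.84 to 0.92) and 0.90 (0.78 to 1.02).

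**Figure D1:**
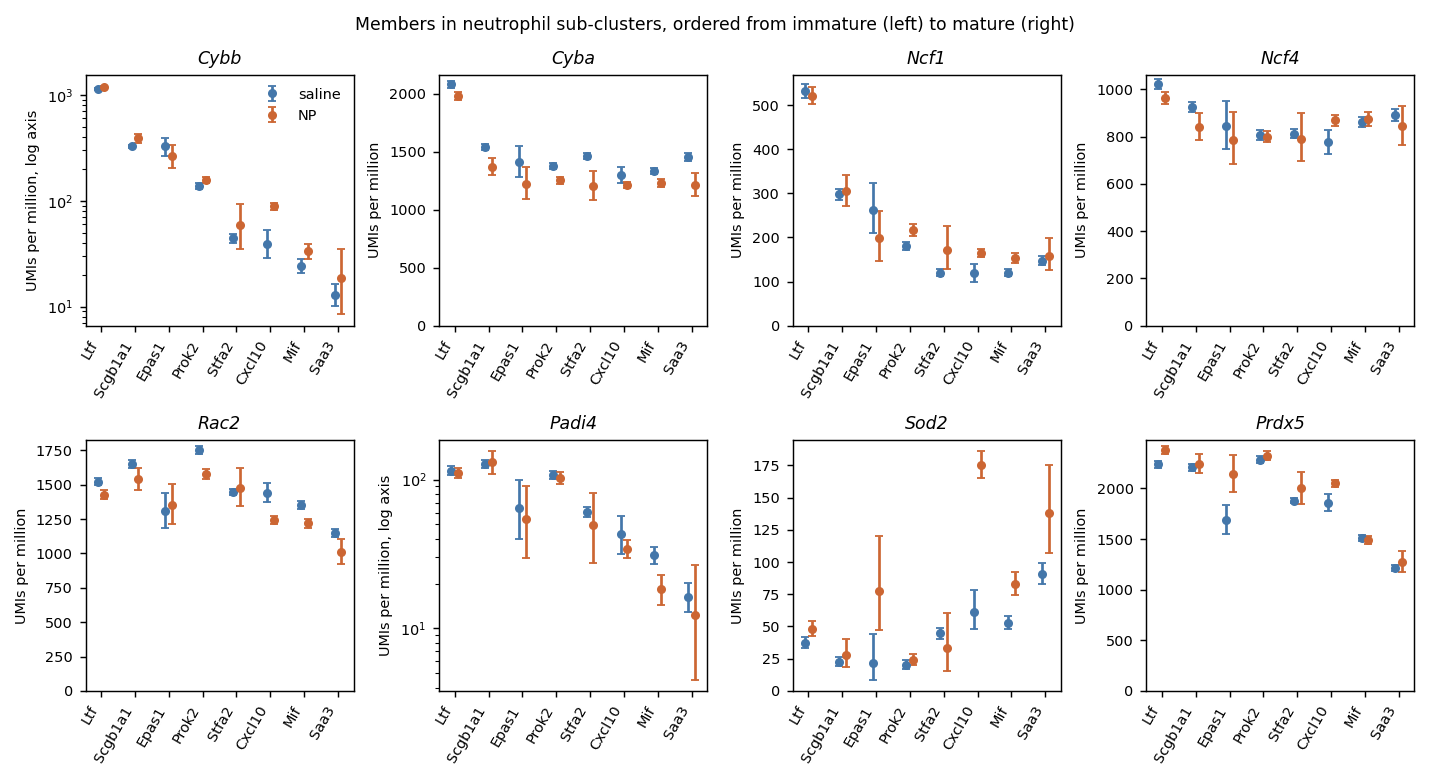
Each panel plots 1 member's level, in CPM of the sub-cluster, in the 8 neutrophil sub-clusters with at least 30 cells in each library, from immature (left) to mature (right), for saline (blue) and NP (orange) cells. Bars are 95% Poisson intervals, and the *Cybb* and *Padi4* axes are logarithmic. *Cybb* goes from 1132 to 12.99 in saline cells while *Cyba* goes from 2082 to 1456, and *Sod2* in NP cells reaches 175 in the *Cxcl10*-led sub-cluster.

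Counted at a 1.5-fold cutoff, 4 of the 8 members (*Cybb*, *Ncf1*, *Padi4* and *Prdx5*) were higher at the immature than at the mature end in the saline library, where 9.01% of the 4330 genes with at least 200 UMIs were. In the NP library 5 of 8 were, with *Cyba* added, against 15.1% of 2100 genes. The median log2 ratio was 0.70 over the members and -1.16 over all genes in saline, and 0.80 and -0.80 in NP cells. The *Sod2* ratio of -1.27 in saline lay close to the median of all genes, while that of -1.52 in NP cells lay below their median of -0.80. The other 7 members lay above the median in both libraries. The immature and mature ends held 8225353 and 5235020 UMIs in saline, but 5977395 and 485812 in NP cells. Genes of the NP library thus reached 200 UMIs mainly through the immature end. Shares and medians of all genes are therefore not comparable between the libraries, nor is the place of *Sod2* among them. With coarser sub-clusters (resolution 0.3) *Prdx5* no longer passed 1.5-fold, at 0.31 in saline and 0.21 in NP cells, and *Cyba* passed it in saline at 0.61.

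The second question was whether the members differed between the NP and the saline library in neutrophils as a class. *Cybb* was at 300 (295 to 305) in saline and 411 (403 to 420) in NP neutrophils, a log2 NP over saline ratio of 0.45 (0.42 to 0.49). *Sod2* was at 42.6 (40.8 to 44.5) and 82.5 (78.9 to 86.2), a ratio of 0.95 (0.86 to 1.04). These were the highest ratios of the 8 members in this class. In the same cells monocyte markers summed to 158 and 267 (10 of 12 higher, none at 0), interferon-induced genes to 251 and 1166 (10 of 10 higher), 8 dissociation stress genes to 8833 and 11736 (5 of 8 higher) and 3 erythroid genes to 27.5 and 162, and their part was not tested. *Ncf1* was at 237 and 275, a ratio of 0.22 (0.17 to 0.26), and *Prdx5* at 1924 and 2093, a ratio of 0.12 (0.11 to 0.14).

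The other members were level or slightly lower in NP neutrophils. *Ncf4* was at 890 and 888, a log2 ratio of -0.0039 (-0.028 to 0.020). *Cyba* had a ratio of -0.10 (-0.12 to -0.08), *Rac2* of -0.12 (-0.14 to -0.10) and *Padi4*, at 78.3 and 68.9, of -0.19 (-0.27 to -0.10). Past 1.5-fold, 1 of 8 members (*Sod2*) was higher in NP neutrophils, against 3.83% of 7259 genes, and 0 of 8 were lower, against 4.50% of them. The median ratio was 0.06 over the members and -0.13 over all genes, so the slightly negative ratios of *Cyba* and *Rac2* lay at the median gene.

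Within neutrophil sub-clusters the differences were uneven. In the *Ltf*-led sub-cluster *Sod2* had a log2 NP over saline ratio of 0.35 (0.12 to 0.59), the farthest from 0 of the 8 members, and *Cybb* one of 0.07 (0.02 to 0.11). In the *Cxcl10*-led sub-cluster *Sod2* was at 61.6 in saline and 175 in NP cells, a log2 ratio of 1.51 (1.16 to 1.88). Of its 1087 UMIs in these NP cells, 60.3% lay in 58 of 1145 cells. Of its 69 UMIs in the saline cells, 44.9% lay in 10 of 183 cells. Cells with a *Sod2* UMI made up 24.6% of this sub-cluster in saline and 30.3% in NP. After thinning these shares were 7.69% (4.27 to 12.6) and 10.8% (9.09 to 12.8), with overlapping intervals. There *Cybb* was at 39.3 and 88.3, a ratio of 1.17 (0.72 to 1.65), and *Ncf1* at 119 and 165, a ratio of 0.47 (0.21 to 0.74). Past 1.5-fold, 2 of 8 members (*Cybb* and *Sod2*) were higher in NP cells of this sub-cluster, against 6.86% of 2901 genes.

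In the *Mif*-led sub-cluster *Sod2* had a log2 ratio of 0.65 (0.44 to 0.86), *Cybb* of 0.46 (0.13 to 0.78) and *Ncf1* of 0.36 (0.21 to 0.51). *Padi4* was lower there, at 31.0 in saline and 18.3 in NP cells, a ratio of -0.76 (-1.15 to -0.38). Past 1.5-fold, 1 of 8 members was higher and 1 of 8 lower, against 1.87% and 0.91% of 4067 genes. The immature granule list summed to 4141 in saline and 3424 in NP cells of this sub-cluster. A list of terminal neutrophil genes summed to 1337 and 2090, so its NP cells stood further along maturation by these lists. The part of this difference in the ratios was not tested. Differences between these ratios of sub-clusters were not tested.

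Because the libraries held the sub-clusters in different proportions, the class ratio was also taken with the saline mix of sub-clusters in both libraries. *Sod2* then had a log2 ratio of 0.40 in place of 0.95 and *Cybb* of 0.14 in place of 0.45, and 0 of 8 members stayed past 1.5-fold. These values have no interval. They lean on sub-clusters with few NP cells, the *Scgb1a1*-led, *Stfa2*-led and *Saa3*-led ones. Those held 67, 38 and 132 NP cells, with 28, 10 and 67 *Sod2* UMIs. The order of the granule share gave another view, with 4 ranges of equal size over all neutrophils, cut at 1.08%, 0.456% and 0.226% of UMIs, with 386, 635 and 532 cells within 10% of these cuts. The ranges were not matched for sub-cluster, so the mix of sub-clusters may still differ between the libraries within a range. In the range with the least granule RNA (1235 saline and 943 NP cells), *Cybb* was at 11.9 and 53.5, a ratio of 2.16 (1.74 to 2.61), and *Sod2* at 80.8 and 198, a ratio of 1.30 (1.12 to 1.48). *Cybb* there rests on 59 UMIs in 50 saline cells and 201 UMIs in 94 NP cells, and 77.1% of the latter lay in 48 cells. For *Sod2* 36.1% of the saline UMIs lay in 62 cells and 55.2% of the NP UMIs in 48 cells. In the range with the most granule RNA (1472 and 706 cells) the ratios were 0.48 (0.44 to 0.52) and 0.57 (0.40 to 0.73).

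Marker lists moved with these ratios. In the *Cxcl10*-led sub-cluster the 10 interferon-induced genes summed to 2252 in saline and 3449 in NP cells, with 8 of 10 higher. The terminal neutrophil genes summed there to 1164 and 2472, and the immature granule list to 6018 and 5012. By these lists its NP cells stood further along maturation. The 12 monocyte markers summed to 166 and 224, with 10 of 12 higher in NP cells, and 2 of them were at 0 in saline and none in NP cells. In the range with the least granule RNA the monocyte markers summed to 171 and 218, with 8 of 12 higher and none at 0, and the interferon-induced genes to 522 and 2456. Dissociation stress genes were also higher in NP cells, at 13688 and 17118 in the *Cxcl10*-led, 15558 and 20765 in the *Mif*-led and 18751 and 26434 in the *Saa3*-led sub-cluster, with 6 of 8 higher in each. *Cybb* is abundant in monocytes, and the part of these lists in the ratios was not tested. Of the 548 *Cybb* UMIs in NP cells of the *Cxcl10*-led sub-cluster, 65.1% lay in 58 cells and 57 in a single cell. Of the 44 in its saline cells, 75% lay in 10 of 183 cells. After thinning, *Cybb* was seen in 1.65% (0.34 to 4.74) of these saline and 5.24% (4.02 to 6.69) of these NP cells, with overlapping intervals.

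As a share of cells with a UMI, *Cybb* was seen in 8.17% (7.47 to 8.92) of saline and 11.8% (10.7 to 12.99) of NP neutrophils after thinning to 1000 UMIs, which left out 8 and 1 cells. Without thinning the shares were 27.3% and 30.1%. *Sod2* was seen in 4.85% (4.31 to 5.45) and 8.07% (7.13 to 9.09) after thinning, and in 27.6% and 29.7% without it. Median depth was 6042.5 and 5232 UMIs in neutrophils and 3840 and 3835.5 in the endothelial cells used as background. *Padi4* was seen in 4.91% of saline and 4.03% of NP neutrophils after thinning and in 0 of the endothelial cells, which allows up to 1.24% and 0.334% of them.

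**Figure D2:**
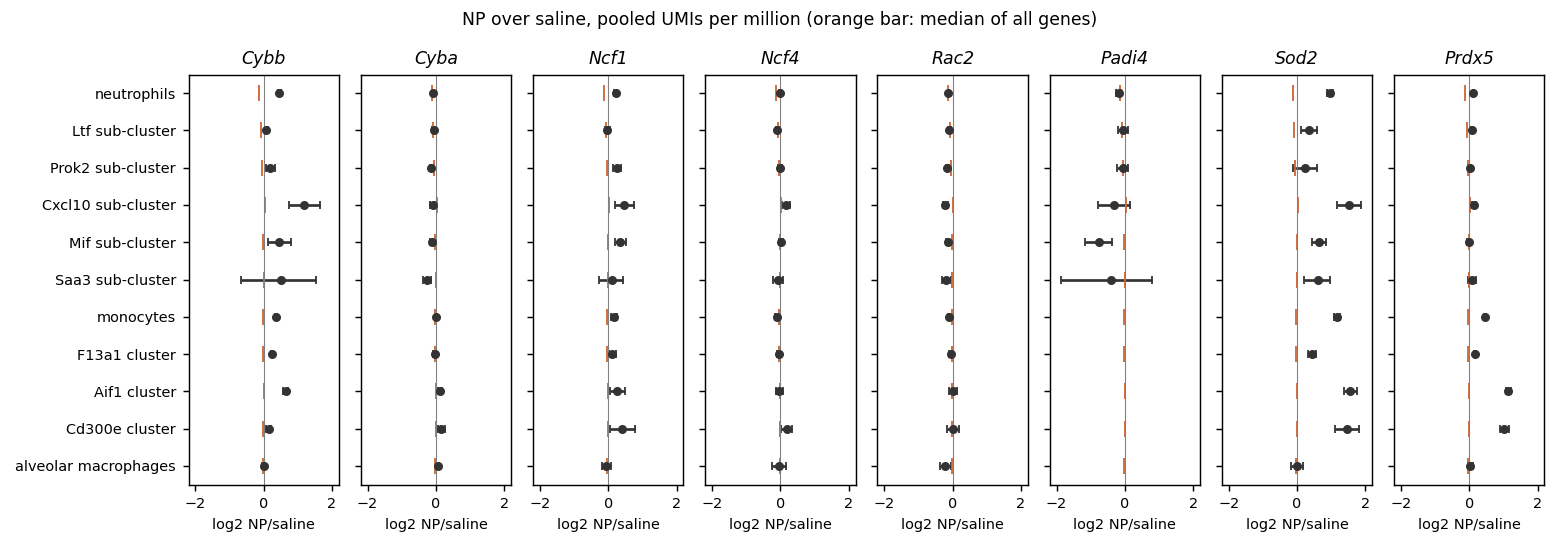
The log2 NP over saline ratio of each member (1 panel each) is plotted for neutrophils and 5 of their sub-clusters, monocytes and their 3 clusters, and alveolar macrophages, with 95% counting intervals. Orange bars mark the median of all genes, and points under 50 UMIs are not drawn. *Sod2* lies farthest to the right in the *Aif1*-led monocyte cluster (1.55) and the *Cxcl10*-led neutrophil sub-cluster (1.51), and every member with a point lies within 0.21 of 0 in alveolar macrophages.

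Monocytes held more *Cybb* than neutrophils in each library and almost no *Padi4*. *Cybb* was at 1365 (1344 to 1387) in saline and 1753 (1735 to 1770) in NP monocytes, a log2 ratio of 0.36 (0.33 to 0.39). *Sod2* was at 112 (106 to 118) and 249 (243 to 256), a ratio of 1.16 (1.07 to 1.25). Of its UMIs, 17.0% lay in 39 of 778 saline cells and 33.8% in 76 of 1504 NP cells. A single cell held up to 14 of them in saline and 106 in NP monocytes. *Prdx5* was at 1367 and 1889, a ratio of 0.47 (0.44 to 0.49).

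The remaining oxidase genes differed little between the libraries in monocytes. *Ncf1* had a ratio of 0.16 (0.07 to 0.25), *Cyba* of -0.00075 (-0.026 to 0.025), *Rac2* of -0.09 (-0.14 to -0.05) and *Ncf4* of -0.11 (-0.15 to -0.08). *Padi4* had 13 UMIs in saline and 12 in NP monocytes, too few to compare. Past 1.5-fold, 1 of 7 members with at least 200 UMIs (*Sod2*) was higher in NP monocytes, against 4.30% of 8134 genes, and 0 of 7 were lower, against 1.71%. The median ratio was 0.16 over these members and -0.03 over all genes.

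The monocyte class was made of 3 clusters led by *F13a1*, *Aif1* and *Cd300e*. In the *F13a1*-led cluster (554 saline and 681 NP cells) *Sod2* was at 107 and 144, a log2 ratio of 0.43 (0.31 to 0.54), and *Prdx5* had a ratio of 0.18 (0.14 to 0.21). There 0 of 7 members were past 1.5-fold, against 1.52% of 7044 genes higher and 1.28% lower. In the *Aif1*-led cluster (128 and 456 cells) *Sod2* was at 133 and 388, a ratio of 1.55 (1.36 to 1.74). *Prdx5* there was at 1096 and 2422, a ratio of 1.14 (1.08 to 1.21), and *Cybb* at 1134 and 1771, a ratio of 0.64 (0.58 to 0.71). These 3 of 7 members were past 1.5-fold in the *Aif1*-led cluster, against 5.62% of 4894 genes.

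In the *Cd300e*-led cluster (96 and 367 cells) *Prdx5* was at 769 and 1561, a ratio of 1.02 (0.89 to 1.16), while *Cybb* was at 2064 and 2273, a ratio of 0.14 (0.06 to 0.22). With *Sod2*, 2 of 7 members were past 1.5-fold there, against 5.04% of 2998 genes. In saline cells *Cybb* was thus highest in the *Cd300e*-led cluster and *Prdx5* highest in the *F13a1*-led one. Neutrophil markers in the monocyte class summed to 5575 in saline and 3045 in NP cells, with 4 of 14 higher in NP cells and none at 0, but in the *Aif1*-led cluster they summed to 1481 and 2091, with 12 of 14 higher. Interferon-induced genes summed to 178 and 502 in the class and to 396 and 843 in the *Aif1*-led cluster, with 10 of 10 higher in each. The part of either list in these ratios was not tested.

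Alveolar macrophages, the resident phagocytes of the airspace, had the highest *Cybb* of the 10 classes compared and showed no member past 1.5-fold. *Cybb* was at 2657 (2598 to 2717) in saline and 2665 (2616 to 2714) in NP cells, a log2 ratio of 0.0046 (-0.037 to 0.046). *Sod2* was at 148 in both, a ratio of 0.0013 (-0.18 to 0.18). *Prdx5* was at 674 and 691, and *Rac2*, at 223 and 192, had the farthest ratio from 0 at -0.21 (-0.36 to -0.06). Of 7 members tested here, 0 were past 1.5-fold in either direction, against 1.42% of 4934 genes. The cells numbered 165 and 221, and the interval of *Sod2* allows a difference of up to 0.18 in either direction.

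Interstitial macrophages were few, with 65 saline and 87 NP cells. Dendritic cell markers ranked second in their cluster, at 3.24 against 4.71 for the macrophage list (mean log2 fold of the 5 highest markers). The class may therefore be mixed. *Cybb* was at 476 (434 to 521) and 684 (641 to 729), a ratio of 0.52 (0.36 to 0.68). *Padi4* had 7 UMIs in saline and 42 in NP cells, and 95.2% of the latter lay in 5 cells, so its higher level of 30.6 against 7.03 rests on a few cells.

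In lymphocytes *Cybb* was lower than in monocytes and macrophages, while *Rac2* was higher than in them. *Rac2* was at 1256 and 1342 in NK cells and at 819 and 824 in T cells, a ratio of 0.0096 (-0.068 to 0.087) in the latter. *Cyba* was at 1143 and 1316 in NK cells, 707 and 658 in B cells and 482 and 558 in T cells. B cells held *Cybb* at 256 and 218, a ratio of -0.23 (-0.39 to -0.08), and no *Padi4* UMI in either library, which allows a level of up to 1.33 and 1.15. In T cells *Cybb* was at 46.8 and 94.5, a ratio of 1.01 (0.73 to 1.30), the only one of 6 members past 1.5-fold, against 1.60% of 3867 genes. It was seen in 26 of 505 saline and 32 of 418 NP T cells, with up to 54 and 48 UMIs in a cell. The 12 monocyte markers in T cells summed to 331 and 647, and 12 of 12 were higher in NP cells, with 1 at 0 in saline and none in NP cells. Their part was not tested.

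Stromal, endothelial and epithelial cells held *Cyba*, at 452 and 619, 325 and 299, and 187 and 216 in saline and NP cells. In stromal cells *Cybb* was at 117 and 253, a ratio of 1.11 (0.83 to 1.40), and *Ncf4* at 80.2 and 148, a ratio of 0.89 (0.54 to 1.24). With *Prdx5*, at 403 and 621, 3 of 6 members were higher past 1.5-fold, against 10.2% of 2620 genes. *Cybb* UMIs lay in 8 of 163 saline and 38 of 283 NP stromal cells. Monocyte markers summed to 1199 and 1919 there, with 11 of 12 higher, 1 at 0 in saline and none in NP cells, and their part was not tested.

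In endothelial cells *Rac2* was lower in the NP library, at 84.7 and 33.5, a ratio of -1.34 (-1.68 to -0.99), as 1 of 4 members, against 1.56% of 5181 genes. Neutrophil markers in the same cells summed to 11598 in saline and 3481 in NP cells, with 2 of 14 higher in NP cells and none at 0, and their part was not tested. Free RNA could give up to 41.4 and 13.2 of the *Rac2* levels. *Sod2* was at 102 in endothelial cells of both libraries, a ratio of 0.0013 (-0.27 to 0.28). In epithelial cells *Cybb* had 0 UMIs in 52 saline cells, which allows a level of up to 5.52, and 1 UMI in 50 NP cells, while *Sod2* stood at 151 and 134.

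**Figure D3:**
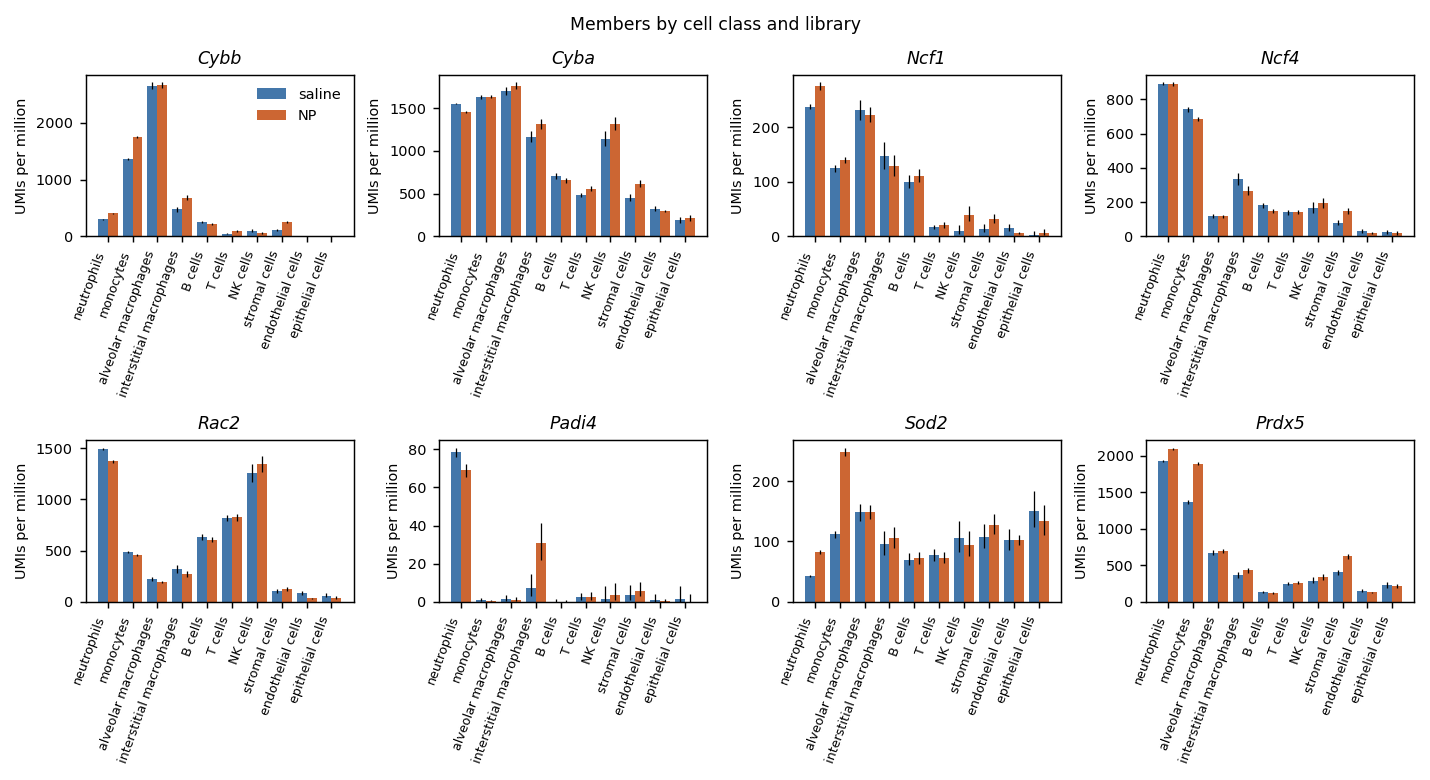
Bars give each member's level, in CPM of the class, in 10 cell classes for saline (blue) and NP (orange) cells, with 95% Poisson intervals. *Cybb* reaches 2657 and 2665 in alveolar macrophages, *Padi4* is highest in neutrophils (78.3 and 68.9), and *Sod2* differs visibly between the libraries in neutrophils and monocytes.

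Free RNA, which droplets pick up from broken cells, was read from barcodes under 50 UMIs. *Cybb* stood there at 282 in saline and 468 in NP barcodes and *Sod2* at 93.5 and 155. *S100a8*, a neutrophil transcript, then limits the free RNA of other classes, taking all of it there as free. By that limit free RNA could give at most 10.7 of the 1753 CPM of *Cybb* in NP monocytes and 3.55 of the 249 for *Sod2*. In T cells the limit for *Cybb* was 21.8 of 46.8 in saline and 35.9 of 94.5 in NP cells. In neutrophils *S100a8* sets no such limit, since it is their own transcript. The free RNA levels of *Cybb* (282 and 468) lay near their levels in neutrophils (300 and 411), and those of *Sod2* (93.5 and 155) lay above them (42.6 and 82.5). In the *Saa3*-led neutrophils, however, *Cybb* was at 12.99 and 18.5, far below its free RNA levels. *Sod2* was at 90.7 and 138 in those cells. Endothelial *Cybb*, at 7.06 and 10.6 with limits of 12.6 and 9.46, was at or near what free RNA could give, and no expression is read from it.

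The cells that supply each transcript in the lung differed between the members and the libraries. Neutrophils held 95.2% (94.5 to 95.8) of all *Padi4* UMIs in saline and 87.8% (86.3 to 89.3) in NP cells. For *Cybb* their share was 34.8% and 15.2%, and monocytes held 38.0% and 59.3%. *Sod2* went with *Cybb* in this respect, with 25.6% of its UMIs in saline monocytes and 53.6% in NP monocytes. For *Rac2* neutrophils held 81.5% and 60.8%. These shares follow the number of cells and their depth as well as the level per class, and neutrophils made up 64.8% of saline and 37.2% of NP cells.

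**Figure D4:**
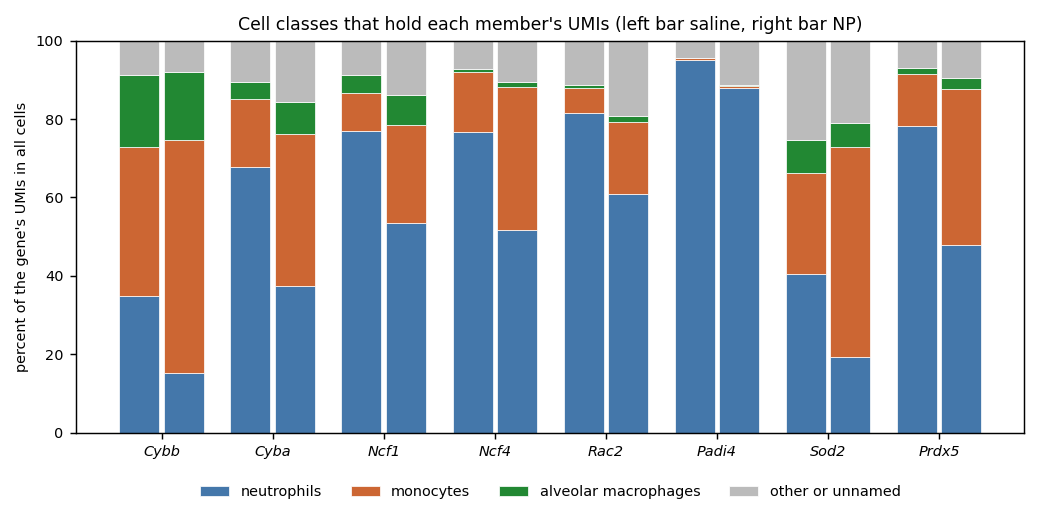
Stacked bars show, for each member, the percent of its UMIs over all cells that lie in neutrophils, monocytes, alveolar macrophages and the remaining or unnamed cells, with saline at left and NP at right of each pair. The neutrophil part of *Padi4* is 95.2% and 87.8%, and the monocyte part of *Sod2* is 25.6% and 53.6%.

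Other genes of the pathways were counted from a list of 49. Of 12 further oxidase genes and homologues, 5 had at least 200 UMIs in neutrophils, and 1 of the 5 was past 1.5-fold higher in NP cells with none lower, against 3.83% and 4.50% of all genes. It was *Hvcn1*, a proton channel that supports the oxidase, at 2.37 and 4.51, a ratio of 0.93 (0.54 to 1.32). These low levels rest on 114 and 109 UMIs, while alveolar macrophages held *Hvcn1* at 271 and 285. The part of RNA from other cells in this ratio was not tested. *Rac1* was at 378 and 357 in neutrophils.

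Of 11 NET and granule protease genes 3 were measured in neutrophils and none was past 1.5-fold, with a median ratio of -0.19 against -0.13 over all genes. Under the minimum of 200 UMIs, *Ctsg*, a granule protease, had 96 UMIs in saline and 7 in NP neutrophils, a ratio of -2.78 (-4.13 to -1.68). *Mpo* had 84 and 21, a ratio of -1.004 (-1.77 to -0.30), and *Elane* 107 and 36, a ratio of -0.58 (-1.16 to -0.02). *Elane* and *Mpo*, a protease and a peroxidase packed early in granule formation, had their highest levels in the dividing sub-cluster led by *Ube2c* (17 cells in each library), at 102 and 44.2 for *Elane* and 75.9 and 9.37 for *Mpo*. Both were at 1.84 or less in the *Ltf*-led sub-cluster, where *Padi4* was at 115 and 111. The *Ube2c*-led sub-cluster held 697896 saline and 747181 NP UMIs in all, so most neutrophil *Elane* UMIs lay in it in both libraries. Most *Mpo* UMIs of saline neutrophils lay in it as well, so the class ratios of *Elane* and *Mpo* rest largely on few dividing cells. *Padi1*, *Padi2* and *Padi3* were each at 1.78 or less in all 10 sub-clusters.

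Of 26 further antioxidant genes 20 were measured in neutrophils and none was past 1.5-fold, against 3.83% of all genes higher and 4.50% lower, with a median ratio of -0.22 against -0.13 over all genes. *Gpx1*, a glutathione peroxidase, was at 1243 and 1074, a ratio of -0.21 (-0.23 to -0.19), and *Txn1*, thioredoxin, was at 1969 and 2389, a ratio of 0.28 (0.26 to 0.29). In monocytes 2 of 24 were past 1.5-fold higher, against 4.30% of all genes. They were *Nfe2l2* (a regulator of antioxidant genes) at 107 and 165, a ratio of 0.63 (0.54 to 0.73), and *Srxn1* (which restores peroxiredoxins) at 5.70 and 9.97, a ratio of 0.81 (0.40 to 1.23). In alveolar macrophages *Hmox1*, heme oxygenase, was the only one of 21 past it, against 0.75% of all genes higher, at 86.3 and 182, a ratio of 1.08 (0.87 to 1.29). *Sod1*, the cytosolic counterpart of *Sod2*, was in neutrophils at 10.2 and 8.36, a ratio of -0.29 (-0.54 to -0.05).

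Genes whose levels ran most like each member were found by Pearson correlation of log2(CPM + 10) over 15 sub-clusters and classes in both libraries, 30 points that share 2 libraries. Among 11828 genes, *Cybb* was closest to *Flna* (r = 0.89), *Cyba* to the actin-branching gene *Arpc4* (0.96), and *Ncf4* to *AB124611* (0.95). *Rac2* was closest to *Cd52* (0.95), *Padi4* to *Mmp25* (0.96), *Sod2* to *Cox6b1* (0.84) and *Prdx5* to *Pkm* (0.95).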

How the data were processed

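Single-cell RNA was measured in 1 saline and 1 NP lung library. The deposited files hold raw UMI counts per gene and barcode, which the authors made with Cell Ranger on mm10 after bcl2fastq. The submitters' processing notes give Cell Ranger 6.0 and the matrix header gives version 4. Total UMIs were 91168129 in saline and 90081747 in NP. No column of other samples was used (0).

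A barcode was kept as a cell where 500 to 5000 genes were detected and less than 7.5% of UMIs were mitochondrial, and doublets were kept. Both libraries were clustered together without integration (log of UMIs per 10000, 2000 variable genes, 30 components, 20 neighbors, Leiden resolution 1, and 0.6 within neutrophils), leaving out the 8 members and 49 pathway genes. Clusters were named from marker lists, so a difference from the study's cell types may come from rebuilt names. Clusters of other classes in which the neutrophil list stood above its level in other cells were left unnamed, a rule set after the data were seen. Clusters came from leidenalg 0.10.2 and python-igraph 0.11.9 on nearest neighbors from scikit-learn 1.9.0. Intervals came from scipy 1.17.1, tables from pandas 2.3.3, components from numpy 2.4.6, doublet scores from scanpy 1.11.5 and plots from matplotlib 3.10.9, all under Python 3.11.15.

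Counts were summed per class and library and divided by the class's UMIs, times 1000000 (CPM). Levels have exact Poisson intervals, shares of cells exact Clopper-Pearson intervals, and log2 ratios conditional binomial intervals, all at 95%, and a sum under 3 UMIs was set to that floor in a ratio. Counting error alone is covered, since mice cannot be told apart, and no test was run. Background shares count genes with at least 200 UMIs in the pair compared that passed 1.5-fold. Shares of cells were also taken after thinning to 1000 UMIs. Free RNA was read from barcodes under 50 UMIs. Where it was subtracted, its share was taken from lung epithelial secretory genes such as *Scgb1a1* and not from *S100a8*. These genes stood at 546 in saline and 36.9 in NP cells of the *Scgb1a1*-led neutrophil sub-cluster. Genes named in the text are the 8 members, those of the pathway list and the 3 genes most correlated with each member, some of which are not reported here. *Flna* and other first-ranked genes come from that last rule. The members and lists were chosen with earlier results of these data known. The log2 ratios and their intervals in neutrophils and monocytes were run on simulated counts, and the clustering was not. Those counts were drawn independently, as the intervals assume, so the run could not show how UMIs clumped in single cells affect them. In saline neutrophils 70.9% of *Cybb* UMIs lay in 281 of 5612 cells. Alternatives were other cell filters, resolutions, scalings, a doublet filter and, in neutrophils only, the saline mix of sub-clusters.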

Additional observations from a re-analysis of the deposited data

Results flagged for a closer look

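Members were also seen outside the cells, in barcodes that held under 50 UMIs, which served only to set free RNA levels and which numbered 1734692 in saline and 1719390 in NP. *Cybb* and *Sod2* are given because they were higher in NP than in saline outside the cells, while the other 6 members were not. *Prdx5* was level outside the cells, a log2 ratio of -0.02 (-0.07 to 0.03), and the remaining members were lower. There the log2 NP over saline ratio was 0.73 for both *Cybb* (0.63 to 0.83) and *Sod2* (0.55 to 0.91). More precisely the values were 0.7311 for *Cybb* and 0.7279 for *Sod2*. *Padi4* had a ratio of -1.09 in the same barcodes and *Rac2* of -0.50. Over all cells kept the ratios were 0.76 for *Cybb*, 1.13 for *Sod2*, -0.96 for *Padi4* and -0.59 for *Rac2*. The median over all genes was 0.37 there. Past 1.5-fold, 2 of 8 members were higher, against 31.4% of 11828 genes, and 2 were lower, against 3.12%. Neutrophils made up 64.8% of saline and 37.2% of NP cells, and the part of this mix was not tested. No share over all genes was taken in the barcodes under 50 UMIs.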

How the results depend on the processing

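The count of members past 1.5-fold higher in NP neutrophils was 1, and it was 2 with a minimum of 800 detected genes per cell and 0 with the saline mix of sub-clusters. The median log2 ratio of the members in neutrophils, 0.06, became 0.19 with the median of all genes set to 0. The count of members higher at the immature end in the NP library was 5, and 3 with 4 granule ranges in place of sub-clusters. The cause of these changes was not tested, apart from the mix of sub-clusters, which is that alternative's own construction. In the neutrophil and monocyte classes and between the stage ends, where alternatives were run, none changed the sign of a ratio past 1.5-fold, while *Ncf4* in neutrophils, near 0, kept its sign in 9 of 13. Ratios in single sub-clusters and in other classes had no alternative run. In neutrophils *Sod2* ranged from 0.40 to 1.08 and *Cybb* from 0.14 to 0.64 over 13 alternatives, and in monocytes from 1.05 to 1.19 and from 0.32 to 0.39 over 12. The 12 did not include the saline mix of clusters, so the monocyte ranges do not cover it. The *F13a1*-led cluster held 554 of 778 saline and 681 of 1504 NP monocytes. *Sod2* was at 107 and 144 CPM in that cluster, against 133 and 388 in the *Aif1*-led one. The immature over mature ratio of *Cybb* ranged from 4.70 to 7.73 in saline and from 3.69 to 7.15 in NP cells over 7. The doublet threshold shared by both libraries, which marked 243 saline and 307 NP cells, was chosen after seeing the data, because the planned threshold per library marked 1 saline cell. No paired analysis was possible because each condition was 1 library. With 1 library per condition no depth lets the difference between mice be read.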
